A study of Mus musculus with 12 samples.

Results

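The 10 genes described here encode proteins that coat lipid droplets or take fat out of them: the perilipins Plin1, Plin2, Plin3, Plin4 and Plin5, the CIDE proteins Cidea and Cidec, and the neutral lipases Pnpla2, Lipe and Mgll. They were chosen by symbol from the 21936 genes of a deposited expression table, and all 10 were found, each in 1 row. RNA was sequenced from eyelid tissue of male C57BL/6 mice, 6 to 8 weeks old at the start, held in 12 h of light and 12 h of darkness. High-fat mice ate a diet with 60 kcal% fat and control mice a standard diet with 10 kcal% fat, for 3 months by the sample labels and 4 months by the series text. Tissue was taken at 9h, 15h or 21h, which gave 6 groups of 2 libraries: high-fat at 9h (numbered 6 and 7 in their labels), 15h (2 and 6) and 21h (3 and 6), and control at 9h (2 and 3), 15h (2 and 3) and 21h (1 and 2). The labels call the tissue meibomian gland, whereas the series text describes eyelids removed whole. It is not stated whether each library came from 1 animal or from several pooled, and p-values therefore cover only the scatter among the 12 libraries. Following the series title, which speaks of diurnal rhythm and hyperlipidemic mice, the genes were compared by diet, by hour of collection, and for a dependence of the diet difference on the hour.

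A lipid droplet is a core of neutral fat under a single layer of phospholipid, and perilipins sit on that layer and control which enzymes reach the core. CIDE proteins gather where droplets touch and move fat from the smaller to the larger one. Pnpla2, also called ATGL, removes the first fatty acid of a triglyceride, Lipe, also called HSL, the next, and Mgll the last. In meibomian and sebaceous glands the secreting cells fill with droplets and then burst, so the droplet content itself becomes the secretion.

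Promoters of 4 of these genes are shown because the results turn on them: Plin4 and Mgll had the smallest p-values for diet, and Plin5 and Plin2 the smallest for time of day. Each sequence is the coding strand from 250 bases before to 50 bases after the RefSeq start on GRCm38.p6, and all 4 were read from RefSeq. The Plin4 window is chr17:56109733-56110032 (minus strand), the Mgll window, the first of 2 for this gene, is chr6:88724162-88724461 (plus strand), the Plin5 window, also the first of 2, is chr17:56117499-56117798 (minus strand), and the Plin2 window is chr4:86670010-86670309 (minus strand). Capitals mark matches, on either strand, to 3 motifs: the E-box CACGTG, which the clock factors CLOCK and BMAL1 are known to bind, the nuclear receptor half-site AGGTCA, and the glucocorticoid receptor half-site AGAACA. No match overlapped another.
Plin4: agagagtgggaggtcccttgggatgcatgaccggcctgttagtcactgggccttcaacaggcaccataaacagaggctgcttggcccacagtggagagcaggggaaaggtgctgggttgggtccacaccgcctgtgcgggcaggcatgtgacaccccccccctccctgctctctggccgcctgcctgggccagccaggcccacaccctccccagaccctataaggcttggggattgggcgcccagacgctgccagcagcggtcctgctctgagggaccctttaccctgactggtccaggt
Mgll: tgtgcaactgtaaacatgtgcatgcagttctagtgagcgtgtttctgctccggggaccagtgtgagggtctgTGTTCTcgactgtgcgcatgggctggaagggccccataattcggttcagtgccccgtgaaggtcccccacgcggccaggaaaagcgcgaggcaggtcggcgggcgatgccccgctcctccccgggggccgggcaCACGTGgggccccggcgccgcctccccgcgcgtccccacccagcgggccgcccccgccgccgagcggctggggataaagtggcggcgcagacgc
Plin5: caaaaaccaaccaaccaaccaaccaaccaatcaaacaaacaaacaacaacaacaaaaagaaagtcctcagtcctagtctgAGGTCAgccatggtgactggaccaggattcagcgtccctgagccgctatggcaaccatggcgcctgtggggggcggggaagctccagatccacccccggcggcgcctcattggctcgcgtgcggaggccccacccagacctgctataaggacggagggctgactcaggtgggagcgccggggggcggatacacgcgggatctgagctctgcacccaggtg
Plin2: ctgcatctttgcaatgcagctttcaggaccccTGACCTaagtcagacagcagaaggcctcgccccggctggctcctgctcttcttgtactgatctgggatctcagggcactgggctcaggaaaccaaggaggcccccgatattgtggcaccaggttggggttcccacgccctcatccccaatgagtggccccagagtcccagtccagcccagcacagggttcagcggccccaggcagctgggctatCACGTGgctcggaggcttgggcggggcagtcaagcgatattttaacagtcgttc

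The Plin2 window held an E-box across its start (bases -4 to 2, where 1 is the first transcribed base) and a half-site AGGTCA on the opposite strand at -218 to -213. Mgll had an E-box at -44 to -39 and the half-site AGAACA on the opposite strand at -178 to -173, and Plin5 had AGGTCA at -170 to -165. No letters of the Plin4 window matched. Over the 13 windows read for 9 of the 10 genes, CACGTG was in 3, AGGTCA in 3 and AGAACA in 1. Of all 32851 mouse windows of this length, 7.15% held CACGTG, 16.3% AGGTCA and 19.0% AGAACA. A match describes the letters of the window and was not tied to binding or to any level below.

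The deposited values are FPKM, that is reads scaled to the length of a gene's merged exons and to the depth of the library, and their steps gave back a depth of 14079167 to 17867452 reads per library. Markers of lipid-secreting gland cells were detected in every library, 18 of 18, led by the desaturase Scd1 (2993 to 5270 FPKM), the elongase Elovl4 (1103 to 1707 FPKM) and the wax synthase Awat2 (840 to 1474 FPKM). Skeletal muscle was present too: Acta1, the actin of muscle fibres, stood at 721 to 2083 FPKM, Tnnt3 at 451 to 1164 FPKM and Mylpf at 297 to 731 FPKM, and 13 of 14 muscle markers passed the filter. In such mixed tissue, fewer cells of a type and less RNA per cell cannot be told apart. The 2 high-fat libraries at 9h stood apart from each other. Library 7 exceeded library 6 by a ratio of 1.75 for Plin2, 1.63 for Cidea, 1.62 for Pnpla2, 1.52 for Plin4, 1.41 for Plin5 and 1.24 for Mgll, and by 1.54 for the summed gland markers (12935 against 8394 FPKM). The other 4 genes were lower in library 7, by ratios of 0.88 for Plin1, 0.84 for Cidec, 0.84 for Plin3 and 0.82 for Lipe. The ratio of the higher to the lower library had a median over the 10 genes of 1.32 in that group and of 1.08 to 1.21 in the other 5 groups. Across all genes tested the pair least alike was that of high-fat mice at 15h (Pearson's r of 0.967, against 0.978 for the high-fat pair at 9h), whose macrophage markers summed to 368 FPKM in library 2 and 1148 FPKM in library 6.

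The 10 genes differed widely in level, by mean from the 57th to the 13199th of the 21936 genes. Cidea, best known from brown fat and sebaceous glands, was the most abundant, with a mean of 578.8 FPKM over the 12 libraries (range 437 to 755 FPKM). Plin2, a coat found on droplets of most cell types, followed with 283 FPKM (178 to 410), and Mgll with 273 FPKM (226 to 372). Pnpla2 averaged 59.8 FPKM (47.2 to 83.1), Plin4 35.4 FPKM (24.2 to 50.7) and Plin3 16.2 FPKM (13.4 to 17.7). At the low end were Plin5 with 5.23 FPKM (3.79 to 8.04), Cidec with 3.36 FPKM (2.05 to 4.60), Lipe with 2.67 FPKM (2.19 to 3.14) and Plin1 with 0.729 FPKM (0.352 to 1.13). The coat and the fusion protein typical of white fat cells, Plin1 and Cidec, were thus each far below another member of their own family in this tissue. In this order each gene was above the next in 12 of 12 libraries, apart from Plin2 over Mgll and Cidec over Lipe, each in 7 of 12. The ranges of those pairs overlapped, as did those of Pnpla2 with Plin4 and of Plin5 with Cidec.

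**Figure D1:**
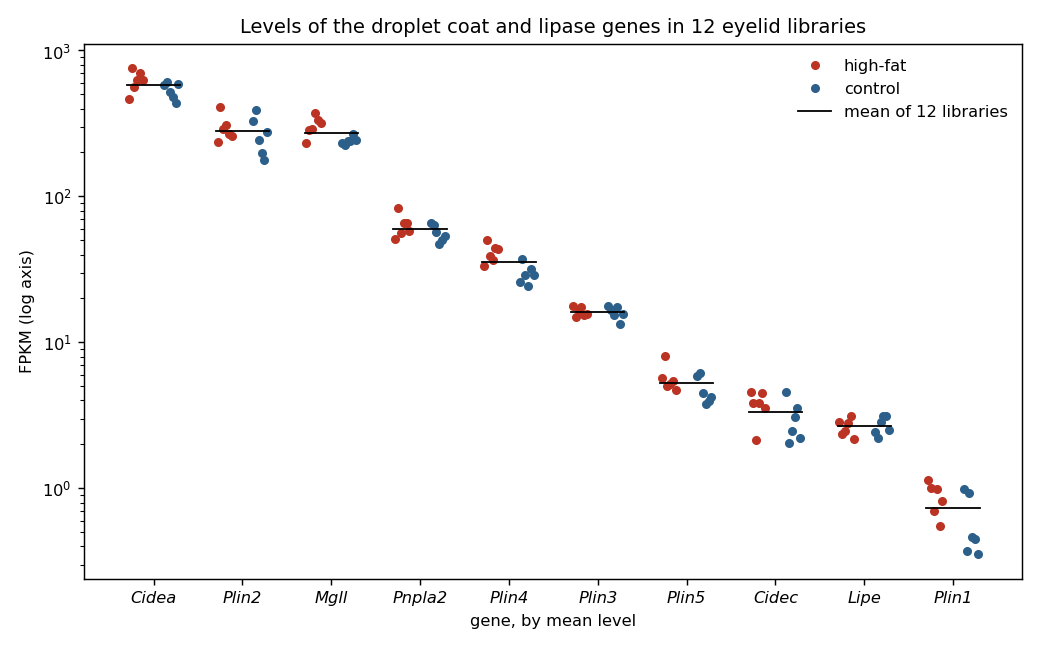
FPKM on a log axis of each gene in each library, ordered by mean level, with 6 high-fat libraries left of 6 control libraries for each gene and a bar at the mean of all 12. Cidea lies at 437 to 755 FPKM and Plin1 at 0.352 to 1.13 FPKM, and within each gene the points of the diets overlap.

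Plin1, the coat of white fat cell droplets that holds back the lipases until it is phosphorylated, rested on 26 to 92 reads per library. It was above 1 FPKM in 2 libraries, both high-fat at 9h, and so entered the test only through the group where it was highest. Of the markers of white fat cells, Lpl averaged 16.0 FPKM over the 12 libraries, Cfd 13.4 FPKM and Fabp4 12.9 FPKM. Adipoq averaged 4.35 ± 1.87 FPKM in high-fat mice and 2.53 ± 0.72 FPKM in control mice (SD, n = 6 each), and Lep lay between 0.0333 and 0.906 FPKM. Cfd went the other way, with 11.0 ± 4.31 FPKM in high-fat and 15.8 ± 9.15 FPKM in control mice. Neither Adipoq nor Cfd was called for diet. Of the 15 markers on this list 11 passed the filter and none was at 0 in any library. Their sum was 225 to 314 FPKM in high-fat and 186 to 272 FPKM in control libraries, most of it from the fatty acid transporter Cd36 (mean 132 FPKM), followed by Pparg (26.0 FPKM) and Gpd1 (20.8 FPKM), which other cells also make.

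Averaged over the 3 times, the difference of high-fat minus control was above 0 for 9 of the 10 genes and for 48.0% of all genes tested. The median log2 difference was 0.21 against -0.01 for all genes tested. Without Plin1, 8 of 9 were above 0 and the median was 0.21, and without high-fat library 7 at 9h, which also took Plin1 out of the test, the median was 0.093. None of the 10 passed the test, limma on log2(FPKM + 1) with adjustment over all 13228 genes above 1 FPKM in at least 2 libraries, where a gene is called at an adjusted p under 0.05. In this comparison 1.98% of all genes were called, 262 in number, 27 higher and 235 lower. At an unadjusted p under 0.05 there were 3 of the 10 genes and 1860 of all genes, or 14.1%. Voom on the recovered reads called none of the 10. Left out in turn, 4 libraries brought the count of all genes down by over 1.5 times: it was 143 without control library 3 at 15h, 145 without control library 2 at 9h, 159 without high-fat library 3 at 21h and 169 without control library 1 at 21h. For none of the 10 did the 6 high-fat libraries lie clear of the 6 control libraries in either direction, which held for 2.25% of all genes.

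**Figure D2:**
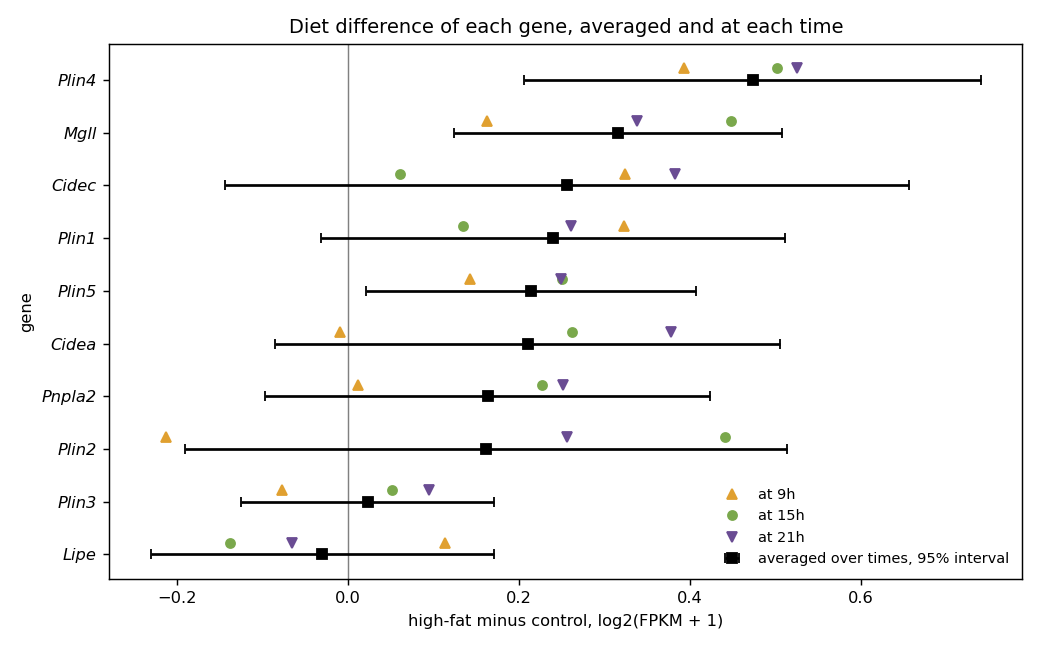
High-fat minus control on the log2(FPKM + 1) scale for each gene. Squares with bars are the difference averaged over times with its 95% interval, and smaller symbols above them the differences at 9h, 15h and 21h. Plin4, Mgll and Plin5 have intervals above 0 before adjustment over all genes, and Lipe and Plin3 lie closest to 0.

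Plin4 had the largest diet difference of the 10 genes on the log2(FPKM + 1) scale. The ratio of high-fat to control means was 1.46 for Plin1 and 1.40 for Plin4, and voom gave Plin1 a log2 difference of 0.65. Those Plin1 values rest on 26 to 92 reads per library. Plin1 also entered the test only through the high-fat libraries at 9h, so its values are a description only. Plin4 (ENSMUSG00000002831, GRCm38 chromosome 17, 56100591 to 56109803, minus strand), known from fat and muscle, coats droplets through a long repeated helix. Its levels were 33.4 and 50.7 FPKM in high-fat and 26.0 and 37.1 FPKM in control libraries at 9h. At 15h they were 38.9 and 36.7 FPKM in high-fat against 28.8 and 24.2 FPKM in control libraries. At 21h they were 44.6 and 43.5 FPKM in high-fat against 31.8 and 28.8 FPKM in control libraries. The diets overlapped at 9h and lay apart at 15h and 21h, where both high-fat libraries were higher. Over all times Plin4 averaged 41.3 ± 6.20 FPKM in high-fat and 29.5 ± 4.57 FPKM in control mice (SD, n = 6 each). The log2 difference was 0.47 ± 0.12 (SE, limma, 95% interval 0.21 to 0.74, adjusted p = 0.0967). Without high-fat library 6 at 9h it was 0.57 with an adjusted p of 0.0299, and over all alternatives tried the adjusted p ran from 0.0299 to 0.365. Plin4 shares 17 exon bases with Hdgfl2 on the other strand, and the strand setting of the counting is not given in the sources used here.

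Plin5, which ties droplets to mitochondria in tissues that burn fat, lies 1797 bases from Plin4 on the same strand (ENSMUSG00000011305, GRCm38 chromosome 17, 56111601 to 56117596, minus strand). It averaged 5.69 ± 1.19 FPKM in high-fat and 4.78 ± 1.02 FPKM in control mice (SD, n = 6 each), from 124 to 274 reads per library. The log2 difference was 0.21 ± 0.09 (SE, adjusted p = 0.306). Both high-fat libraries were above both control libraries at 15h and at 21h but not at 9h. Plin3, a perilipin that moves from the cytosol to newly formed droplets, lies 159879 bases further on (chromosome 17, 56277476 to 56292873, minus strand) and was the steadiest of the 10. It averaged 16.3 ± 1.12 FPKM in high-fat and 16.0 ± 1.55 FPKM in control mice, a log2 difference of 0.02 ± 0.07 (SE, 95% interval -0.12 to 0.17).

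Plin2 (ENSMUSG00000028494, GRCm38 chromosome 4, 86648386 to 86670060, minus strand), whose protein is degraded when not bound to fat, varied more between libraries than between diets. It ran from 235 through a median of 280.1 to 410 FPKM in high-fat and from 178 through 261 to 392 FPKM in control libraries. The log2 difference was 0.16 ± 0.16 (SE, 95% interval -0.19 to 0.51, adjusted p = 0.695). Plin1 averaged 0.866 ± 0.218 FPKM in high-fat and 0.592 ± 0.287 FPKM in control mice, a difference of 0.24 ± 0.12 on the log2(FPKM + 1) scale, which understates the change of a gene this low (SE, adjusted p = 0.415).

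Among the CIDE genes, Cidea (ENSMUSG00000024526, GRCm38 chromosome 18) ranged from 462 through a median of 629 to 755 FPKM in high-fat and from 437 through 549 to 608 FPKM in control libraries. It averaged 622 ± 103 FPKM in high-fat and 535 ± 69.0 FPKM in control mice (SD, n = 6 each), a log2 difference of 0.21 ± 0.13 (SE, 95% interval -0.08 to 0.51, adjusted p = 0.520). The lowest high-fat library, number 6 at 9h, was below 5 of the 6 control libraries. Cidec, the fusion protein that gives white fat cells their single large droplet (chromosome 6, 113424634 to 113435760, minus strand), averaged 3.73 ± 0.871 FPKM in high-fat and 2.99 ± 0.968 FPKM in control mice, with a log2 difference of 0.26 ± 0.18 (SE, adjusted p = 0.566).

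None of the lipases was called for diet, and no test compared their differences with each other. Mgll (ENSMUSG00000033174, GRCm38 chromosome 6, 88724412 to 88828360, plus strand), which besides the last step of fat breakdown degrades the endocannabinoid 2-arachidonoylglycerol, stood at 231 and 286 FPKM in high-fat and 232 and 226 FPKM in control libraries at 9h. At 15h it stood at 289 and 372 FPKM in high-fat against 241 and 239 FPKM in control libraries. At 21h the values were 332 and 317 FPKM in high-fat against 269 and 244 FPKM in control libraries. High-fat library 6 at 9h lay among the controls, and the other 5 high-fat libraries were above all 6 control libraries. Its means were 304 ± 47.9 FPKM in high-fat and 242 ± 14.8 FPKM in control mice, and the log2 difference was 0.32 ± 0.09 (SE, 95% interval 0.12 to 0.51, adjusted p = 0.122). Mgll shares 167 exon bases with an antisense transcript, as Lipe does 918.

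Pnpla2, the first lipase (chromosome 7, 141455198 to 141460743, plus strand), averaged 63.4 ± 11.2 FPKM in high-fat and 56.2 ± 7.41 FPKM in control mice. Its log2 difference of 0.16 ± 0.12 (SE, 95% interval -0.10 to 0.42) was not called. Lipe, the second lipase (chromosome 7, 25379527 to 25398710, minus strand), was the one gene of the 10 with a difference below 0 averaged over times. Its log2 difference was 0.11 at 9h, -0.14 at 15h and -0.07 at 21h. It averaged 2.63 ± 0.355 FPKM in high-fat and 2.71 ± 0.385 FPKM in control mice, a log2 difference of -0.03 ± 0.09 (SE, 95% interval -0.23 to 0.17), whose sign depended on the library left out.

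Taken time by time, none of the 10 genes was called at 9h, 15h or 21h, in limma or in voom, and the sign was the same at each time for some genes only. At 9h 7 of the 10 differences were above 0, or 6 of 9 without Plin1, against 55.5% of all genes. The median was 0.13 (0.11 without Plin1) against 0.02 for all genes. Of all genes 0% were called, and 955 of all genes, or 7.22%, but none of the 10 had an unadjusted p under 0.05. At 15h 9 of the 10 were above 0, or 8 of 9 without Plin1, against 43.3% of all genes. The median was 0.24 (0.25 without Plin1) against -0.03. Of all genes 0.0605% were called there. At 21h 9 of the 10 were again above 0, or 8 of 9 without Plin1, against 45.9% of all genes. The median was 0.26, with or without Plin1, against -0.01. Of all genes 0.00756% were called at 21h. Plin4 and Mgll were those of the 10 with an unadjusted p under 0.05 at 15h (0.0362 and 0.0136, adjusted 0.401 and 0.300) and at 21h (0.0301 and 0.0466, adjusted 0.811 and 0.911), as had 11.6% of all genes at 15h and 5.37% at 21h.

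The 2 high-fat libraries lay clear of the 2 control libraries at 9h, in either direction, for 29.8% of all genes and for 0 of 9 of these genes. Plin1, the tenth, lay clear there too, but had passed the filter through those same high-fat libraries. At 15h it held for 6 of the 10, Plin2, Plin4, Plin5, Cidea and Mgll with the high-fat libraries higher and Lipe with them lower, against 45.7% of all genes. At 21h it held for 6 of the 10, all higher in high-fat libraries, namely Plin1, Plin4, Plin5, Cidea, Pnpla2 and Mgll (5 of 9 without Plin1), against 37.8% of all genes. Between 2 and 2 libraries such separation is common, and the counts at 15h and 21h are to be read against those shares. Plin4, Plin5, Cidec, Pnpla2 and Mgll, 5 of the 9 genes other than Plin1, had a difference above 0 at all 3 times, as had 17.8% of all genes. The sign at 9h turned on a single library for several genes: the Plin2 difference there was -0.21, and 0.19 without high-fat library 6, and that of Pnpla2 was 0.01, and -0.33 without high-fat library 7.

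The test of whether the diet difference depended on time called none of the 10 genes, and 0% of all genes, in limma or in voom. In limma 405 of all genes, or 3.06%, but none of the 10 had an unadjusted p under 0.05. Plin2 had the smallest unadjusted p among the 10, 0.263, and the adjusted p was 0.999 for each. The diet differences at the 3 times are therefore not shown to differ for any of them.

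**Figure D3:**
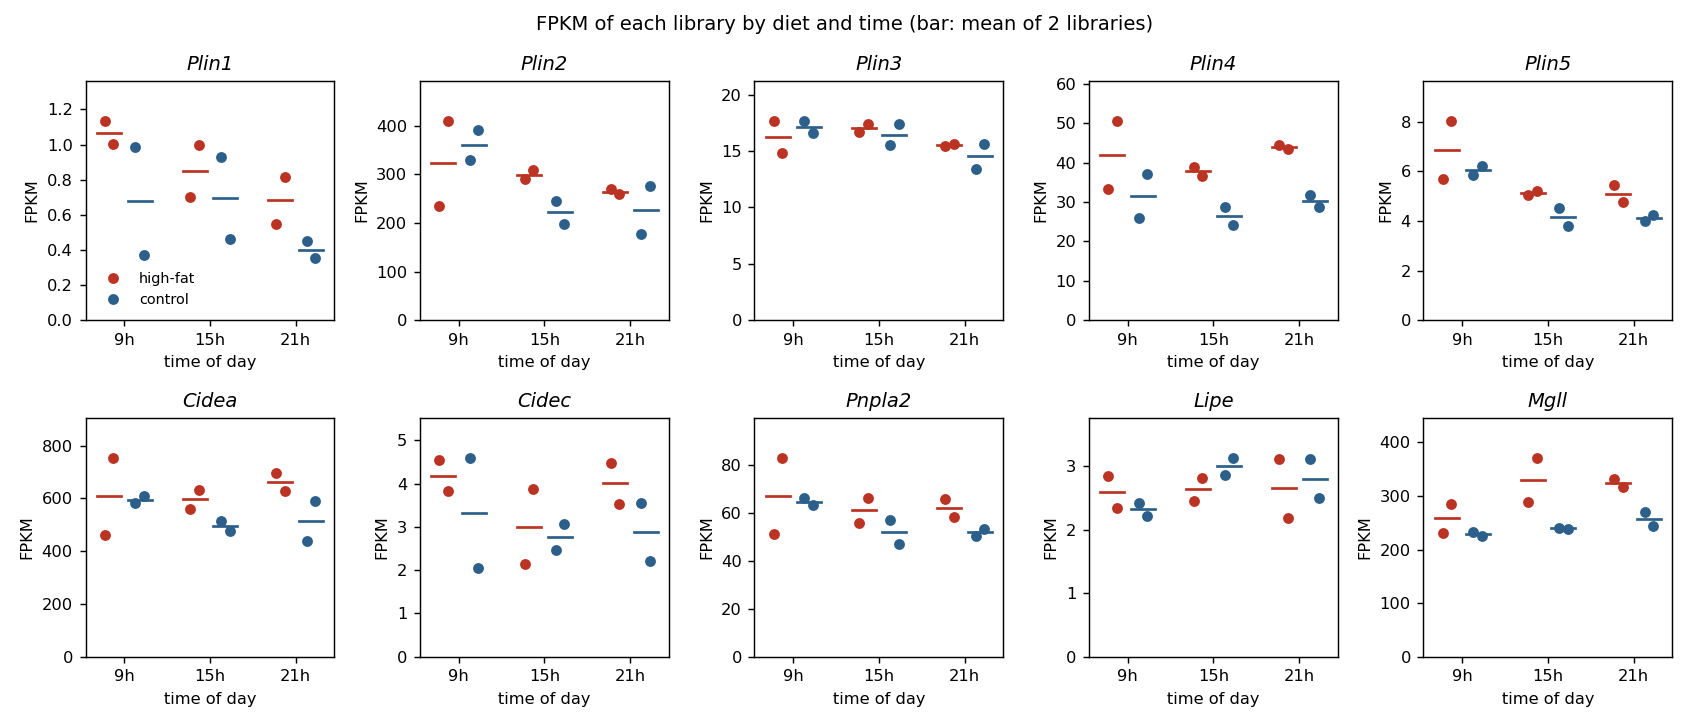
FPKM of each library by time of day for each of the 10 genes, with the 2 high-fat libraries left of the 2 control libraries at each time and a bar at each mean. Each axis starts at 0. Plin4 and Mgll lie higher in high-fat libraries at 15h and 21h, Plin5 lies highest at 9h in both diets, and the high-fat pair at 9h is wide for Plin2, Cidea and Pnpla2.

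By time of day, Plin5 came closest to a call. Its levels at 9h were 5.69 and 8.04 FPKM in high-fat and 5.87 and 6.21 FPKM in control libraries. At 15h they were 5.03 and 5.21 FPKM in high-fat and 4.53 and 3.79 FPKM in control libraries. At 21h they were 5.44 and 4.75 FPKM in high-fat and 3.99 and 4.26 FPKM in control libraries. All 4 libraries at 9h were above all 8 libraries at the later times, and such a separation, in either direction, held for 1 of the 10 genes and 4.82% of all genes. Averaged over the diets, the log2 difference was -0.40 ± 0.10 (SE) between 15h and 9h, -0.01 ± 0.10 between 21h and 15h, and -0.41 ± 0.10 between 21h and 9h. The F test of time in both diets gave Plin5 a p of 0.00519 and an adjusted p of 0.0904 in limma.

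In that test of time 0 of the 10 genes and 1.46% of all genes were called, 193 in number. At an unadjusted p under 0.05 there were 1 of the 10 and 3116 of all genes, or 23.6%. Voom called none of the 10 and 254 of all genes. The count of all genes rested on single libraries: it was 2503 without high-fat library 6 at 9h, 237 and 197 without high-fat libraries 2 and 6 at 15h, and 1 to 21 without any 1 of the other 9. Without high-fat library 6 at 9h, Plin5 (adjusted p = 0.00957), Plin2 (0.0464) and Pnpla2 (0.0473) were called. Plin2 averaged 342 ± 79.1, 261 ± 49.5 and 246 ± 45.9 FPKM at 9h, 15h and 21h (SD, n = 4 each), with log2 differences of -0.38 ± 0.19 (SE) between 15h and 9h and -0.46 ± 0.19 between 21h and 9h. Mgll moved the other way, with 244 ± 27.9, 285 ± 62.2 and 291 ± 41.0 FPKM (SD, n = 4 each) and differences of 0.21 ± 0.10 (SE) and 0.25 ± 0.10. Neither passed the test with all libraries, with adjusted p-values of 0.270 and 0.275.

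Within the high-fat mice none of the 10 genes and 0% of all genes were called for time, in limma or in voom. In limma 1155 of all genes, or 8.73%, and none of the 10, had an unadjusted p under 0.05. Within the control mice 0 of the 10 and 0.0227% of all genes were called, 3 in number, a count that was 840 without high-fat library 6 at 9h and 839 without high-fat library 7, in a fit where all libraries share 1 estimate of the spread. The control mice gave Plin5 an unadjusted p of 0.0189 (adjusted 0.207) and Plin2 one of 0.0435 (adjusted 0.261), and 2421 of all genes, or 18.3%, had an unadjusted p under 0.05. The Plin2 levels there were 330.5 and 392 FPKM at 9h, 245 and 198 FPKM at 15h, and 178 and 276 FPKM at 21h, with both 9h libraries above the later 4. A separation of these 2 libraries from the later 4, in either direction, held for 5 of the 10 genes and for 45.6% of all genes. Cidea, Cidec, Plin1, Plin3, Plin4, Pnpla2 and Lipe had unadjusted p-values of 0.179 to 0.736 for time in both diets.

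The sum of the muscle markers was 6278 to 8086 FPKM in the 4 libraries at 9h, 2850 to 5389 FPKM at 15h and 3169 to 4832 FPKM at 21h, and 4 of the 13 tested, Actn3, Atp2a1, Ckm and Myh4, were called for time in both diets. One of the 14, Tnnc2, was at 0 in 8 libraries. The white fat cell markers summed to 225 to 314 FPKM at 9h, 189.6 to 233 FPKM at 15h and 186 to 231 FPKM at 21h, with no marker called for time. Over the 12 libraries the log2 level of Plin5 had a Pearson r of 0.60 with the muscle sum, 0.68 with the sum of gland markers and 0.95 with that of white fat cell markers, while Mgll had -0.58 with the muscle sum. Most of the white fat cell sum came from Cd36 (mean 132 FPKM), which other cells also make, so an r with it is not specific to fat cells. These r values are descriptions over libraries that share depth and tissue makeup, and the part of muscle or fat in the time course of Plin5 was not tested.

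Of the 18 gland markers 2 were called for diet, Soat1 higher and Lpcat4 lower. Averaged over times 16 of the 18 differences were above 0, with a median of 0.21, while at 9h the median was 0.016 against 0.023 for all genes. Their summed level ran from 8394 through a median of 11324 to 12935 FPKM in high-fat and from 7816 through 9550 to 11092 FPKM in control libraries. At 15h and 21h the sums of the high-fat libraries lay above those of the control libraries, and at 9h they overlapped. The same held for white fat cell markers, whose sums averaged 229.9 FPKM in high-fat and 199.6 FPKM in control libraries at 15h, and 230.2 FPKM in high-fat and 193 FPKM in control libraries at 21h, and 9 of the 11 tested had a difference above 0 averaged over times, with a median of 0.18. Pearson's r with the gland sum over the 12 libraries was 0.94 for Cidea, 0.84 for Plin2, 0.83 for Pnpla2, 0.75 for Plin4, 0.68 for Plin5 and 0.55 for Mgll. It was 0.19 for Plin1, near 0 for Plin3 (0.05) and Cidec (-0.06), and -0.57 for Lipe. With the white fat cell sum it was 0.95 for Plin5, 0.89 for Plin2, 0.89 for Pnpla2, 0.72 for Cidea and 0.56 for Plin4. For the rest it was 0.47 for Plin1, 0.24 for Cidec, 0.16 for Plin3, 0.08 for Mgll and -0.65 for Lipe. With the T cell sum r was -0.79 for Plin4, -0.61 for Plin5, -0.59 for Plin1, -0.58 for Mgll and -0.56 for Cidea. Pnpla2 had -0.55 with the T cell sum, Plin2 -0.48, Cidec -0.21, Plin3 -0.14 and Lipe 0.24. The white fat cell sum is mostly Cd36, which other cells also make, and so is not a measure of fat tissue alone. The part of gland or fat tissue per library in the diet differences of these genes was not tested. No marker passed the test for diet on the lists of white and brown fat cells (11 and 5 tested), skeletal muscle (13), keratinocytes (12), conjunctiva (7) and macrophages (12), while 5 of 8 T cell markers, Cd2, Cd3d, Cd8a, Cd8b1 and Lck, were called lower in high-fat mice. The T cell markers summed to 10.2 to 15.3 FPKM in high-fat and 21.4 to 39.8 FPKM in control libraries, and their part in the diet differences was not tested. The most abundant markers of the brown fat list, by mean FPKM, were Elovl3 (461), Cox8b (71.2) and Cox7a1 (31.6). On that list Ucp1 averaged 0.0298 FPKM, and 5 of the 10 markers passed the filter. Those highest on the other lists were Krt15 (1824), Krt14 (1755) and Krt5 (1215) for keratinocytes, and Krt13 (745), Krt4 (555) and Krt19 (116) for conjunctiva. For macrophages they were Lyz2 (627), C1qb (89.2) and C1qa (86.2), and for T cells Cd3g (3.67), Cd2 (3.46) and Lck (3.17).

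**Figure D4:**
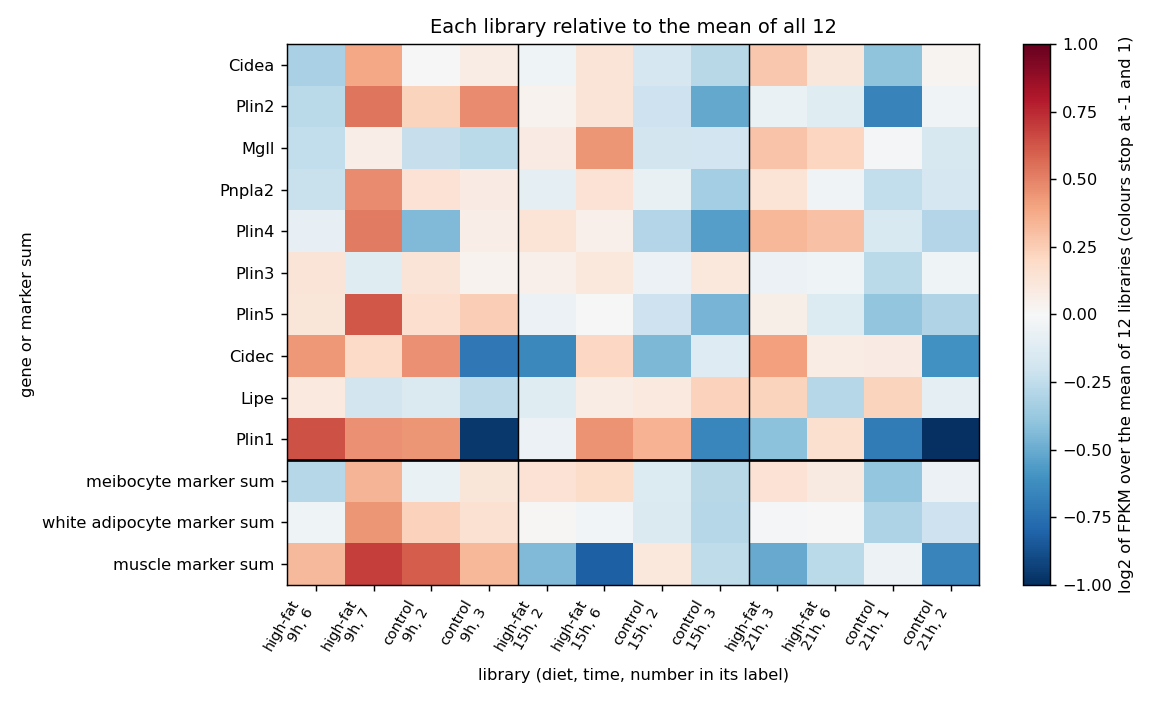
Each row is a gene or the summed FPKM of a marker list, each column a library, and the colour the log2 ratio to that row's mean over the 12 libraries. High-fat libraries stand left of control libraries at each time. Cidea, Plin2, Pnpla2 and Plin5 follow the gland or fat marker sums from library to library, with high-fat library 7 at 9h high and library 6 low for Cidea, Plin2 and Pnpla2, and the muscle sum is highest at 9h.

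Among themselves the 10 genes did not form 1 pattern. Over their 45 pairs Pearson's r across the 12 libraries ran from -0.73 (Plin2 with Lipe) to 0.87, with a median of 0.23. Cidea with Pnpla2 (0.87), Plin5 with Pnpla2 (0.86), Plin2 with Pnpla2 (0.84), Plin2 with Plin5 (0.84) and Plin2 with Cidea (0.80) were the 5 pairs above 0.7. Plin4 and Plin5, neighbours on the chromosome, had 0.62. Of all tested genes with a regular name, those most like Cidea were Slc25a20 (r = 0.97), Awat1 (0.96) and Hsd17b12 (0.95), and those most like Plin2 were Lonp2 (0.97), Unc5b (0.96) and Hbp1 (0.96). Pnpla2 was nearest to Gas2l1 (0.96), Krt79 (0.94) and Scarb1 (0.94), and Plin5 to Clpx, Aldh2 and Dld (0.95 each). Mgll was nearest to Plpp6, Lhpp and Pmvk (0.94 each), and Plin4 to Bend7 (0.91), Pla2g2e (0.91) and Erich5 (0.90). The nearest to Cidec were Hp (0.91), S1pr1 (0.82) and Spsb1 (0.81), to Lipe Imp3 (0.91), Smim20 (0.91) and Dbf4 (0.88), to Plin3 Map3k3 (0.90), Dact3 (0.85) and Gcc1 (0.84), and to Plin1 Pdlim4 (0.87), Lrrn2 (0.82) and Coro2b (0.81). Each r is over 12 libraries and was picked as the highest among all genes, so it is a description only.

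Partners of the lipases were set beside them from a list of 20 genes, of which 18 passed the filter. None was called for diet or for time in both diets, and 10 of 18 diet differences were above 0, with a median of 0.02. The smallest p-values for diet were those of Adrb1, the beta-1 adrenergic receptor, Faah, the hydrolase of anandamide, and Hilpda, an inhibitor of Pnpla2. Adrb1 averaged 1.16 ± 0.243 FPKM in high-fat and 1.87 ± 0.638 FPKM in control mice (SD, n = 6 each), a log2 difference of -0.39 ± 0.11 (SE, adjusted p = 0.156). Faah averaged 11.2 ± 1.10 FPKM in high-fat and 9.30 ± 1.21 FPKM in control mice (log2 difference 0.25 ± 0.08, adjusted p = 0.188). Hilpda stood higher in level, with 101 ± 8.03 FPKM in high-fat and 84.3 ± 12.4 FPKM in control mice (0.26 ± 0.09, adjusted p = 0.201). Abhd5, the coactivator of Pnpla2 that Plin1 holds back, averaged 16.7 ± 2.32 FPKM in high-fat and 15.9 ± 1.98 FPKM in control mice (0.06 ± 0.09, adjusted p = 0.804), and was named here after its values were seen.

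For time, G0s2, another inhibitor of Pnpla2, had the smallest p of the partners. It averaged 5.95 ± 1.58 FPKM at 9h, 7.72 ± 1.44 FPKM at 15h and 9.98 ± 0.677 FPKM at 21h (SD, n = 4 each, adjusted p = 0.0848). Pnpla3, a relative of Pnpla2, followed with 1.64 ± 0.772, 2.23 ± 0.368 and 2.78 ± 0.635 FPKM at those times (adjusted p = 0.187), and then Prkaca, a catalytic subunit of protein kinase A, with 37.8 ± 6.56, 29.6 ± 2.64 and 31.0 ± 0.905 FPKM (adjusted p = 0.202). The beta-3 receptor Adrb3, through which fat cells start lipolysis in mice, averaged 0.374 ± 0.105 FPKM in high-fat and 0.321 ± 0.165 FPKM in control mice and was not tested. That gene too was chosen after its values were seen.

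Genes that build droplets and their fat made up a list of 23, of which 19 passed the filter and none was called for diet or for time in both diets. For diet 11 of the 19 differences were above 0, with a median of 0.04. Ldah, a hydrolase on the droplet surface, had the smallest p, with 10.9 ± 0.811 FPKM in high-fat and 8.95 ± 0.739 FPKM in control mice (SD, n = 6 each) and a log2 difference of 0.25 ± 0.06 (SE, adjusted p = 0.0868). Gpam, which adds the first fatty acid to glycerol phosphate, had 46.8 ± 5.56 FPKM in high-fat and 37.5 ± 3.91 FPKM in control mice (0.31 ± 0.10, adjusted p = 0.212). Dgat1, an enzyme of the last step to triglyceride, had 12.5 ± 2.68 FPKM in high-fat and 10.3 ± 1.10 FPKM in control mice (0.24 ± 0.11, adjusted p = 0.366). For time, Lpin1, the phosphatase that makes diglyceride, averaged 7.01 ± 1.10, 4.78 ± 0.766 and 4.54 ± 0.559 FPKM at 9h, 15h and 21h (SD, n = 4 each, adjusted p = 0.101). Tmem159, a partner of seipin where droplets form, averaged 26.1 ± 3.81, 32.0 ± 2.36 and 34.9 ± 4.36 FPKM (adjusted p = 0.121), and Pcyt1a, which sets the pace of phosphatidylcholine synthesis, 16.2 ± 2.95, 13.1 ± 0.781 and 11.8 ± 0.982 FPKM (adjusted p = 0.135).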

How the data were processed

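RNA sequencing of 12 eyelid libraries was analysed from the FPKM values that the authors deposited. HISAT2 2.0.5, HTSeq 0.9.1, DESeq 1.30.0 and the build mm9 are named in the submitters' processing notes. Per the labels' protocols, Trizol was used for the RNA and a NEBNext kit for the libraries. How FPKM was computed, with which strand setting and annotation, is not given in the sources used here. GENCODE mouse release 21 on GRCm38 holds 21894 of the 21936 gene IDs, and from it come all gene coordinates. With its exon lengths 98.1% of nonzero values were whole reads within 0.02 reads. Counting error of these reads covers no other error.

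Genes above 1 FPKM in at least 2 libraries (13228) were fitted as log2(FPKM + 1) with limma 3.58.1 in R 4.3.3, with a mean-dependent prior and a mean per diet and time, which left 6 residual degrees of freedom. P-values were adjusted by Benjamini-Hochberg over all genes tested. No gene of the 10 fell below the filter, so the permutation test set aside for that case was not run. The fit was tested on simulated data with changes larger than those of the 10 genes. That test does not show its power for differences as small as theirs. The genes and lists were chosen with earlier results of these data known. Named from the lists are the called genes and the 3 with the smallest p for diet and for time, the 3 genes most like each of the 10 by Pearson's r, and the 3 most abundant markers of each list. Adipoq, Lep, Lpl, Cfd, Fabp4, Tnnc2, Ucp1 and the called markers were named after their values were seen. Alternatives were a pseudocount of 0.1, no filter, upper-quartile and TPM scaling, voom on recovered reads, each library left out, a replicate block, array weights and fits of 1 time alone.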

Additional observations from a re-analysis of the deposited data

Results flagged for a closer look

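Plin5 in high-fat library 7 at 9h, with 8.04 FPKM, stood far above the other 5 high-fat libraries, the next of which had 5.69 FPKM. The gap was 0.716 of the whole range of the 6 libraries, above the critical value of Dixon's test at the 95% level. Over the 10 genes and both diets 20 such groups of 6 were examined and 1 was flagged, and chance alone flags about 1 in 20. The next library, number 6, was also high-fat at 9h.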

How the results depend on the processing

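No alternative called any of the 10 genes in any of the 8 comparisons, apart from leaving out high-fat library 6 at 9h. Counts of the 10 called ran from 0 to 1 for diet averaged over times and from 0 to 3 for time in both diets when 1 library was left out, and the cause was not tested. With fewer libraries per group the lone library of a pair was assumed to vary like the others. Of all genes, those called ranged, with 1 library left out, from 143 to 294 for diet averaged over times, 0 to 155 at 9h, 0 to 72 at 15h, 0 to 27 at 21h, 1 to 2503 for time in both diets, 0 to 63 for time in high-fat mice and 0 to 840 for time in control mice. A pseudocount of 0.1 gave 2 calls at 15h, 0 at 21h and 126 for time in both diets. No filter on low values gave 1, 0 and 7 there, and 1 for time in control mice. Scaling to TPM gave 2 at 15h and 0 at 21h, upper-quartile scaling 2 at 21h, and voom 0 at 15h and 0 at 21h. Array weights, which came out equal within each pair and so act as weights per group, gave 1 at 15h, 2 at 21h, 5 for time in both diets and 1092 for time in control mice, and fits of 1 time alone 47 at 9h, 0 at 15h and 0 at 21h.

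Over 12 pairs of same-numbered libraries, r between their deviations from the group mean ran from -0.50 to 0.29 and was above 0.1 in 3. The 2 libraries of a group deviate by equal and opposite amounts, so these values are not independent. They cannot settle whether the numbers pair the samples. With the number as a replicate block, which uses up all but 2 degrees of freedom and leaves 2 libraries without weight, calls over all genes were 0 for diet averaged over times, 1 at 9h, 0 at 15h and 21h and 0 for time in both diets and in control mice, and none of the 10 genes was called. Under the replicate block the diet difference changed sign for Plin2 (-0.090), Plin3 (-0.00018) and Lipe (0.10) averaged over times, for Plin3 (0.0071), Plin5 (-0.013), Pnpla2 (-0.36) and Mgll (-0.14) at 9h, for Plin1 (-0.073) and Cidec (-0.048) at 15h, and for Plin2 (-0.073), Plin3 (-0.051) and Lipe (0.029) at 21h. Scaling to TPM changed the sign of Cidea at 9h (0.0025). With 1 library left out, signs changed for Plin3 (-0.016 to 0.062) and Lipe (-0.092 to 0.032) averaged over times, for Plin2 (-0.61 to 0.19), Plin3 (-0.19 to 0.040), Plin5 (-0.074 to 0.36), Cidea (-0.36 to 0.34), Cidec (-0.11 to 0.76) and Pnpla2 (-0.33 to 0.36) at 9h, for Plin1 (-0.064 to 0.33), Plin3 (-0.025 to 0.13) and Cidec (-0.25 to 0.38) at 15h, and for Plin2 (-0.060 to 0.57), Plin3 (-0.0089 to 0.20) and Lipe (-0.25 to 0.12) at 21h. None of these differences was called, and the cause of the changes was not tested. Averaged over times, 9 of the 10 differences were above 0 under upper-quartile scaling, TPM, voom and a pseudocount of 0.1, with medians of 0.23 to 0.25. Under the replicate block it was 8 of 10, with a median of 0.14. With 1 library left out it was 7 of 9 without high-fat library 6 at 9h, 8 of 10 without control library 2 at 15h, and all but 1 or none otherwise, with medians of 0.093 to 0.29. Depth limits Plin1 (26 to 92 reads per library) and Cidec (61 to 147) most.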
